A study of Mus musculus with 1047 samples.

Results

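The comparison set grey matter microglia of aged mice labelled Trem2ko beside those of aged wild type (WT) mice, in single cells read by Smart-seq2, a method that makes one full-length cDNA library from each sorted cell. Every cell whose label gives the aged Smart-seq2 experiment and grey matter was taken, 414 of 847 aged Smart-seq2 cells and of 1047 samples in the series. The Trem2ko animals were 5 mice with 265 cells between them (A8 with 28, A9 with 35, A10 with 44, A11 with 75 and A12 with 83), and a sixth, A13, was left out because it had only 2 cells. The WT animals were 7 C57BL/6J mice with 147 cells (A1 with 14, A2 with 13, A3 with 19, A4 with 42, A5 with 33, A6 with 7 and A7 with 19). The raw counts of all cells of an animal were summed, so that the animal is the unit of each test.

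The Trem2ko mice carry that name as strain and genotype, and no label describes the allele, the exons it removes or the background it was bred on. They were 20 months old (A8, A9 and A10) or 18 months old (A11 and A12), and the left-out A13 was 28 months old. The WT mice were 18 months old (A3, A5 and A7) or 19 months old (A1, A2, A4 and A6). Grey matter was cut from the frontal cortex after perfusion, dissociated with 45 µM actinomycin D, which blocks transcription during the procedure, and sorted into 96-well plates as viable cells positive for CD45 and CD11b. The sex label was female for A9, A10 and A11 of the Trem2ko mice and for A1 of the WT mice. Reads of Xist went against that label in 2 of the 12 animals, the Trem2ko animals A8 and A10.

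No plate run held both genotypes. The cells of A8, A9 and A10 were on 2 plates of run 43553, those of A11 and A12 were on plates named with a P, and the WT cells were on runs 43517 (A3, A5 and A7), 43546 (A6), 43552 (A2 and A4) and 43556 (A1). Genotype and plate run therefore cannot be told apart in any difference given here. Summed reads were 2865629, 3415948, 6307895, 43339071 and 40268381 in Trem2ko A8 to A12, against 571560 to 4213467 in the WT animals, and the median cell held 90480 to 563100 reads in Trem2ko animals and 58130 to 91020 in WT animals. Markers of microglia were high in every animal: the 10 on the list, among them Tmem119 and C1qa, had summed levels, in CPM (counts scaled to a common library total), of 50700 to 60880 in the Trem2ko animals and 47010 to 55500 in the WT animals. Neutrophil markers summed to 268 to 1014 CPM in Trem2ko and 533 to 875 CPM in WT animals, most of it Csf3r. Of the 9 neutrophil markers, 7 exceeded 20 CPM in at least 1 animal. Ngp reached 72.9 CPM in Trem2ko A11 and S100a9 reached 40.4 CPM in WT A3, while Ly6g stayed under 2 CPM in every animal. B cell markers, led by Ighm, summed to 814 to 1551 CPM in Trem2ko and 805 to 1855 CPM in WT animals, oligodendrocyte markers to 269 to 414 CPM in Trem2ko animals and 253 to 582 CPM in WT animals, and astrocyte markers to 63.1 to 203 CPM in Trem2ko animals and 14.0 to 268 CPM in WT animals. Markers of T and NK cells, monocytes, pericytes, oligodendrocyte progenitors, ependymal cells and red blood cells stayed under 20 CPM each. Neuron markers summed to 0 to 11.9 CPM in Trem2ko animals and 0 to 46.7 CPM in WT animals, and endothelial markers to 1.27 to 30.8 CPM in Trem2ko animals and 0 to 88.4 CPM in WT animals, the highest in WT A7. The border macrophage list, led by Stab1, summed to 114 to 422 CPM in Trem2ko animals and 222 to 1737 CPM in WT animals. The highest was WT A6, the library of 7 cells, where Stab1 alone was at 1734 CPM. In that library Pf4 was at 3.50 CPM, and Mrc1, Cd163 and Lyve1 were at 0. The part of these other cell types in the results was not tested. In WT A5, 2 wells were listed more than once.

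Trem2 is a surface receptor that microglia use to sense lipids, lipoproteins and cell debris. It has no signalling tail of its own and passes its signal through the adaptor DAP12, encoded by Tyrobp, to the kinase Syk and on to phospholipase C gamma 2 (Plcg2). In mouse brains with damage, amyloid or ageing myelin, microglia leave their homeostatic state (P2ry12, Tmem119, Cx3cr1) for one high in Apoe, Lpl, Cst7 and Spp1, often called disease-associated (DAM), and the later part of that shift is known to need Trem2. The question the design poses for grey matter is what the loss of Trem2 does to microglia in a tissue with little of that activated state.

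Trem2 was the one gene that changed at an adjusted p of 0.05, and it fell. Each of the 5 Trem2ko animals held less Trem2 than each of the 7 WT animals, yet Trem2 reads were present in every animal labelled Trem2ko. Around it, the transcripts of its adaptor, of homeostatic microglia and of most lysosomal and DAM genes were at levels that the animals' spread does not separate. Ribosomal protein genes were lower as a group, and that shift was largest against the WT mice of one plate run.

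The level of Trem2, in CPM scaled between libraries by TMM, was 621, 578, 377, 345 and 1379 in Trem2ko A8 to A12. In WT animals it was 2212 at the lowest, 2770 at the median and 5844 at the highest. The groups did not overlap, but the animal labelled Trem2ko A12 stood well above the other 4 Trem2ko animals. The means were 660 ± 420 CPM in Trem2ko animals and 3181 ± 1287 CPM in WT animals (SD, n = 5 and 7). The log2 fold change was -2.27 ± 0.35 (SE), with an adjusted p of 0.029 in edgeR's quasi-likelihood test over 8350 genes. On log2(CPM + 1) of the animals alone, the difference was -2.38, and a two-sided exact permutation test over all 792 ways to divide the 12 animals gave p = 0.0025, the smallest it can give.

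Single cells carried the difference as well, and they did so unevenly. The median cell held 328, 143, 239, 69.6 and 1205 CPM of Trem2 in Trem2ko A8 to A12, against 1810 to 5390 CPM in the 7 WT animals. Cells with no Trem2 read at all were rare in both genotypes: 258 of 265 Trem2ko cells and 146 of 147 WT cells held at least 1 read. With every cell thinned to 30000 reads, which removes the greater depth of the Trem2ko cells, 89.3% of A8 cells, 77.1% of A9 cells, 81.8% of A10 cells, 66.7% of A11 cells and 97.6% of A12 cells still held a read, against 84.6% in WT A1 and 100% in the other 6 WT animals. At that depth the median cell had 9, 5, 7.5, 3 and 37 Trem2 reads in Trem2ko A8 to A12, and between 50 and 120.5 in the WT animals. The share averaged 82.5% ± 11.8 in Trem2ko animals and 97.8% ± 5.82 in WT animals (SD, n = 5 and 7, two-sided exact permutation p = 0.023).

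**Figure D1:**
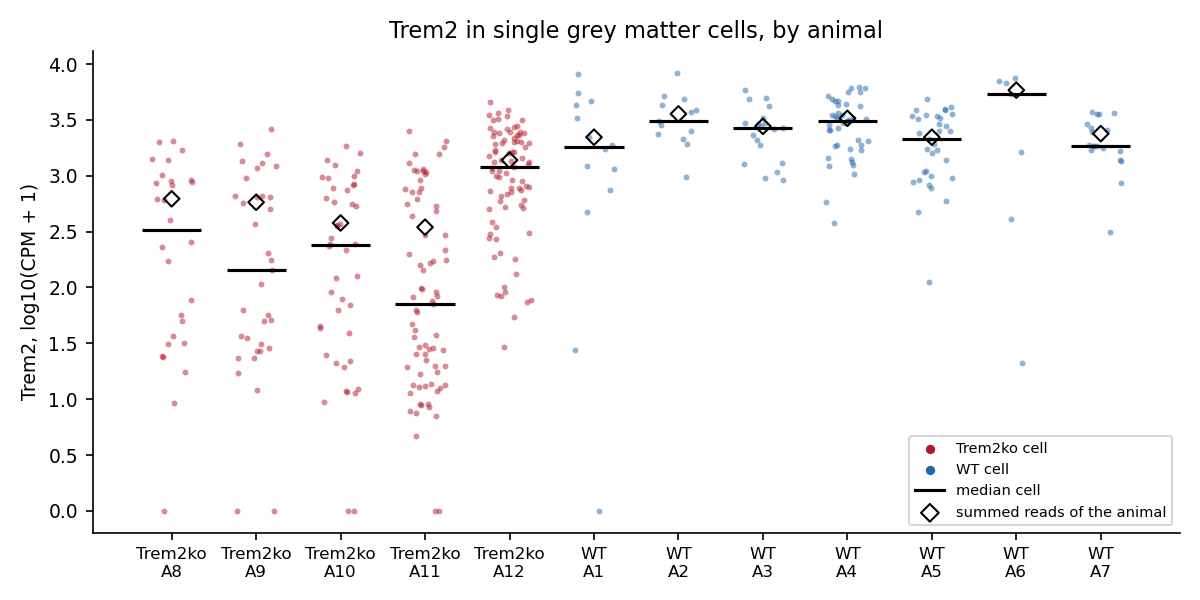
Trem2 in each grey matter cell as log10(CPM + 1), for the 5 Trem2ko animals (red) and the 7 WT animals (blue). Bars are the median cell and diamonds the summed reads of the animal. The median cells of Trem2ko A8 to A11 lie between 69.6 and 328 CPM, that of A12 at 1205 CPM and those of the WT animals at 1810 CPM or more.

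The plates differed within the Trem2ko mice too. A8, A9 and A10 each had cells on both plates of run 43553, and their summed Trem2 was 662, 677 and 468 CPM on plate 43553_1 but 349, 243 and 156 CPM on plate 43553_3. The 2 plates of A12 read 1653 and 1405 CPM, so its higher level was on both. A11 read 128 CPM on plate P5, 370 CPM on plate P8 and 1664 CPM in its 2 cells on plate P4. The 2 cells of the left-out A13 summed to 2279 CPM before TMM scaling, a level inside the WT range. With A13 counted as a sixth Trem2ko animal, the difference in log2(CPM + 1) was -1.60 (two-sided exact permutation p = 0.072) and edgeR's log2 fold change was -0.01. Both values use TMM-scaled levels, so they also rest on the scaling of this 2-cell library and not on its 2279 CPM alone. Counts are per gene, and which exons the allele lacks is not given, so the reads in Trem2ko cells cannot be split into those of a residual transcript and those of an intact one. The gene lies at chr17:48346401-48354147 on GRCm38.

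Across all genes the comparison called 1 of 8350 genes lower (0.012%) and 0 higher (0%) at an adjusted p of 0.05 in edgeR. At an unadjusted p of 0.05 it held 98 lower genes (1.17%) and 119 higher genes (1.43%). DESeq2 on the same libraries called 5 lower and 6 higher. Replicate scatter was wide, with a common biological coefficient of variation of 1.14. Groups that did not overlap were found for 11 genes with Trem2ko below WT (0.132%) and 42 with Trem2ko above WT (0.503%). A gene can pass the low-count filter through 1 genotype alone, and most Trem2ko libraries were deeper. These counts therefore do not show a direction of change. The median log2 fold change of all tested genes was 0.08.

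The call of Trem2 depended on the choice of animals. In 35 other settings the log2 fold change of Trem2 was negative every time, but with A13 included it was close to no difference. Trem2 passed the adjusted threshold in 19. It did not pass without Trem2ko A8, A9, A10 or A11, or without WT A3, A4 or A6, each left out alone, with adjusted p between 0.059 and 0.15 in edgeR. Without the WT animals of plate run 43517 the log2 fold change of Trem2 was -2.48 ± 0.38 (SE, adjusted p = 0.085 in edgeR), and against those animals alone it was -1.85 ± 0.38 (adjusted p = 0.12). Without both Trem2ko A12 and the WT animals of that run it was -2.96 ± 0.32 (SE, adjusted p = 0.0018 in edgeR).

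**Figure D2:**
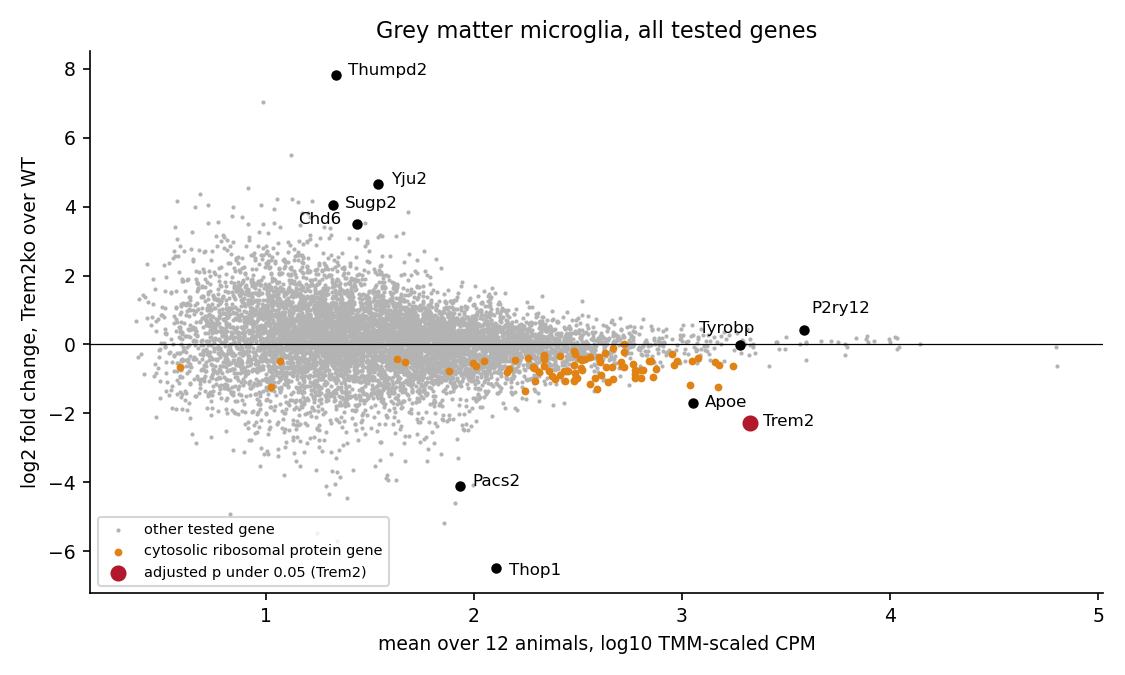
Log2 fold change, Trem2ko over WT, against the mean level of each of 8350 tested genes over 12 animals on a log10 axis. Trem2, at -2.27, is the one gene with an adjusted p under 0.05; orange points are the 81 tested ribosomal protein genes, whose median is -0.66.

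Of the receptor's signalling chain, 26 of 29 listed genes could be tested. Trem2 itself was the only member past an unadjusted p of 0.05 (3.85% beside the background of 1.17%), and none of its partners was. Tyrobp, its adaptor, was at 1921, 1772, 1882, 1995 and 1927 CPM in Trem2ko A8 to A12. In WT animals Tyrobp was at 1423, 1917 and 2244 CPM (lowest, median and highest). All 5 Trem2ko values lay inside the WT range, and the log2 fold change was -0.01 ± 0.15 (SE). Syk averaged 85.2 ± 50.1 CPM in Trem2ko animals and 41.8 ± 33.3 CPM in WT animals, and Plcg2 averaged 90.4 ± 34.5 CPM in Trem2ko animals and 106 ± 76.2 CPM in WT animals. Ptpn6, which encodes the phosphatase SHP-1, averaged 630 ± 85.6 CPM in Trem2ko animals and 903 ± 314 CPM in WT animals (log2 -0.52 ± 0.25), and Ms4a6d, of a membrane protein family whose locus is linked to soluble TREM2 in people, averaged 172 ± 18.6 CPM in Trem2ko animals and 109 ± 46.5 CPM in WT animals. Of the 26 tested members, 9 had positive and 17 negative values, with a median of -0.11 beside 0.08 for all genes.

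The neighbouring receptor genes of the Trem cluster could not be tested. Of 12 genes listed there, 10 were among the deposited symbols and 2 passed the filter on low counts, Oard1 and Nfya. Neither passed an unadjusted p of 0.05.

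Homeostatic genes were high in both genotypes. P2ry12, the ADP receptor that guides microglial processes, was at 4290, 3374, 4505, 4609 and 5654 CPM in Trem2ko A8 to A12. In WT animals P2ry12 was at 2666, 3181 and 4795 CPM (lowest, median and highest), so the groups overlapped although 4 of the 5 Trem2ko values exceeded all but the highest WT value. Its log2 fold change was 0.41 ± 0.17 (SE), with an unadjusted p of 0.027 and an adjusted p of 1.0 in edgeR. Tmem119 averaged 11630 ± 1698 CPM in Trem2ko animals and 10170 ± 2684 CPM in WT animals. The fractalkine receptor gene Cx3cr1 averaged 5377 ± 1249 CPM in Trem2ko animals and 5059 ± 1143 CPM in WT animals. Csf1r, the receptor microglia need to survive, averaged 5330 ± 740 CPM in Trem2ko animals and 6641 ± 2604 CPM in WT animals. All 28 listed homeostatic genes could be tested, and 22 had positive values, with a median of 0.13, while P2ry12 was the only one past an unadjusted p of 0.05 (3.57% beside the background of 1.43%). The split depended on the scaling, since under DESeq2's size factors 15 of the 28 were positive and the median was 0.03. Crybb1 (log2 -0.55 ± 0.28) and Selplg (0.23 ± 0.14) had the next smallest p-values.

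Apoe, the lipid carrier whose rise marks the early DAM state, was lower on average in Trem2ko animals but not beyond the threshold. Its level was 683, 650, 435, 316 and 354 CPM in Trem2ko A8 to A12. The WT animals spread much more widely, with 375 CPM at the lowest, 1188 at the median and 3100 at the highest. WT A4 and A6, at 375 and 597 CPM, lay within the Trem2ko range, and the other 5 WT animals lay above it. The log2 fold change was -1.71 ± 0.45 (SE), with an unadjusted p of 0.0013 and an adjusted p of 1.0 in edgeR. It was -1.58 ± 0.48 without the WT animals of run 43517 and -1.82 ± 0.37 against those animals alone.

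The other genes of the early DAM state lay close to no difference. All 10 of that list could be tested, 5 were positive and 5 negative, the median was 0.01, and Apoe was the only one past an unadjusted p of 0.05 (10.0% beside the background of 1.17%). Under DESeq2's size factors 2 were positive and 8 negative, with a median of -0.09. The lysozyme gene Lyz2 averaged 578 ± 171 CPM in Trem2ko animals and 550 ± 171 CPM in WT animals. The proteases Ctsb (log2 0.05 ± 0.17) and Ctsd (0.11 ± 0.15), the class I light chain B2m (-0.09 ± 0.21) and the ferritin heavy chain Fth1 (-0.24 ± 0.19) were within the spread of the animals.

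Of the late, Trem2-dependent DAM list, 12 of 22 genes were tested, because many were close to absent from grey matter in both genotypes. Lpl, Clec7a, Spp1, Itgax, Axl and Il1b did not pass the filter. Some of these had reads in single animals. Axl had 258 reads in WT A2, 72 in WT A5 and at most 2 in the other WT animals, against 0 to 191 in Trem2ko animals. Itgax had 0 to 147 reads in Trem2ko animals, the most in A10, and 0 to 12 in WT animals. Lpl, the lipoprotein lipase, had 3, 16, 18, 19 and 304 reads in Trem2ko A8 to A12 and between 0 and 43 reads in the WT animals, and Spp1, osteopontin, had 4, 5, 16, 40 and 250 reads in Trem2ko A8 to A12 and between 0 and 17 in the WT animals; the libraries of A11 and A12 were by far the deepest. A12 held 1156 Il1b reads where the other animals held at most 13, and 6402 reads of the chemokine gene Ccl4 where they held at most 384. Cst7, the cystatin F gene, was at 0.358, 44.2, 19.9, 41.0 and 12.8 CPM in Trem2ko A8 to A12 and at 0, 1.96 and 12.4 CPM (lowest, median and highest) in WT animals, overlapping, with a log2 fold change of 2.40 ± 1.35 (SE) that did not pass. Serpine2, a serine protease inhibitor, was the member past an unadjusted p of 0.05 (8.33% of the tested list, beside 1.43%). It was at 1680, 1146, 1650, 1291 and 1155 CPM in Trem2ko A8 to A12 and at 706, 935 and 1374 CPM in WT animals, where WT A1 alone lay inside the Trem2ko range. Its log2 fold change was 0.58 ± 0.21 (SE), with an unadjusted p of 0.013. The median of the 12 was 0.14. Cd9 and Cd68, a tetraspanin and a lysosomal glycoprotein, had log2 values of 0.09 ± 0.23 and 0.28 ± 0.27.

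Lipid handling genes, Apoe among them, could be tested for 17 of 32 listed members, of which 9 were positive and 8 negative, with a median of 0.02. Lrp1, a large endocytic receptor that takes up ApoE particles, was at 164, 184, 241, 153 and 250 CPM in Trem2ko A8 to A12. In WT animals Lrp1 was at 245, 381 and 1120 CPM (lowest, median and highest), so the groups met only where A12 lay above WT A1. Its log2 fold change was -1.35 ± 0.39 (SE), unadjusted p = 0.0028 and adjusted p = 1.0 in edgeR. Apoe and Lrp1 were the 2 members past an unadjusted p of 0.05 (11.8% beside 1.17%). Npc1, which moves cholesterol out of lysosomes, had a log2 value of 0.84 ± 0.78. For cholesterol synthesis, 11 of 22 genes were tested and none passed an unadjusted p of 0.05.

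Lysosomal genes split both ways, with 25 of 39 tested members positive and a median of 0.09 beside 0.08 for all genes. Under DESeq2's size factors 19 of the 39 were positive and the median was -0.02. Those with the smallest p-values were Psap, the saposin precursor (1998 ± 340 CPM in Trem2ko animals and 3087 ± 1403 CPM in WT animals), Man2b1, the lysosomal alpha-mannosidase (1174 ± 212 CPM in Trem2ko animals and 1749 ± 749 CPM in WT animals), and Tpp1, a lysosomal peptidase (583 ± 227 CPM in Trem2ko animals and 368 ± 123 CPM in WT animals). Psap and Man2b1 were past an unadjusted p of 0.05 (5.13% of the list, beside 1.17%), and no member passed the adjusted threshold. Against the WT animals outside run 43517 the log2 value of Man2b1 was -0.11 ± 0.26, in place of -0.57 ± 0.27.

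Interferon-induced genes leaned towards higher values without a single member past an unadjusted p of 0.05. Of 31 listed, 16 were tested and 13 were positive, with a median of 0.88. Ifit3, an antiviral effector, was at 16.1, 320, 0.318, 18.8 and 2.17 CPM in Trem2ko A8 to A12 and at 0 to 48.0 CPM in WT animals, so that A9 held nearly all of the group's signal. Stat2, a transcription factor of the interferon pathway, was at 28.5 ± 31.2 CPM in Trem2ko animals and 5.30 ± 5.85 CPM in WT animals, and Xaf1 at 69.3 ± 52.2 CPM in Trem2ko animals and 21.4 ± 18.6 CPM in WT animals. Without A9 the median of the list was 0.53, and among animals labelled male 9 of 18 were positive. MHC class II genes had 6 of 8 tested members positive and a median of 0.57. Without A9, which held 122 CPM of the invariant chain gene Cd74 where the other 4 Trem2ko animals held 4.90 to 28.3 and the WT animals 2.82 to 28.5, 4 of 8 were positive and the median was -0.02. H2-Ab1 (log2 1.06 ± 1.07) and H2-DMa (0.52 ± 0.33), a class II chain and a peptide-loading chain, were within the spread.

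Genes of the immediate early and dissociation stress response gave 8 of 14 tested members positive and a median of 0.07. The stress-induced factor Atf3 averaged 11.5 ± 17.6 CPM in Trem2ko animals and 95.7 ± 107 CPM in WT animals (log2 -3.04 ± 1.29, unadjusted p = 0.030), the one member past that line (7.14% beside 1.17%). Junb, an AP-1 subunit, had a log2 value of -0.81 ± 0.39 and the chaperone Hspa8 one of 0.44 ± 0.23. In the remaining groups with 15 or more tested members, complement and phagocytosis, class I presentation, cytokines, glycolysis, autophagy, the unfolded protein response, microglial transcription factors, translation factors and actin and adhesion, medians lay between -0.09 and 0.09. The 9 cell cycle genes tested had a median of 0.07, and of 5 transcripts of the mitochondrial genome 4 were negative, with a median of -0.42 and none past an unadjusted p of 0.05.

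**Figure D3:**
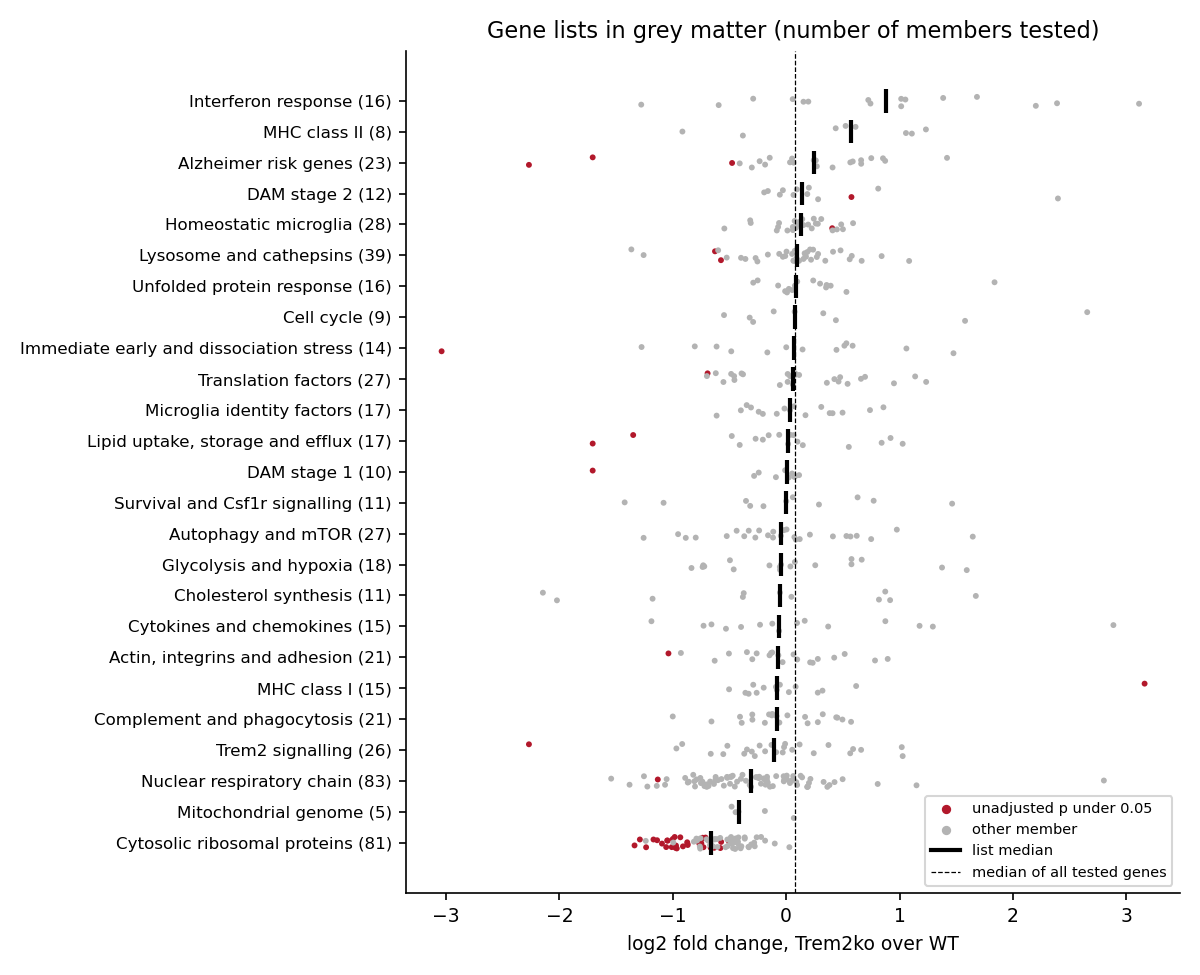
Log2 fold change, Trem2ko over WT, of every tested member of 25 gene lists, ordered by list median from highest to lowest. Black bars are list medians, the dashed line is the median of all tested genes (0.08), and red points are members with an unadjusted p under 0.05, which crowd in the ribosomal protein list (32 of 81).

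Cytosolic ribosomal protein genes, which encode the proteins of the translating ribosome, stood lowest of all lists. Of 84 listed, 81 were tested, 80 had negative values and Rpl6 alone a positive one (negative under DESeq2's size factors), with a median of -0.66 beside 0.08 for all genes. At an unadjusted p of 0.05, 32 of the 81 were lower (39.5% beside the background of 1.17%), and at the adjusted threshold none was. That count depended on the animals: it was 18 without WT A3, 20 without WT A7, 21 without WT A5 or without Trem2ko A8, and 47 without WT A6, each left out alone. With the 2-cell animal A13 included, 7 of 81 were lower at that line, 21 were positive and the median was -0.52. These values also depend on the TMM scaling of that 2-cell library. The groups did not overlap for 4 of them, Rps27, Rpl30, Rpl35 and Rpl38 (4 of 81, beside 0.132% of all genes).

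Rplp1, an acidic protein of the ribosomal stalk, was the member with the smallest p-value. Its level was 580, 680, 738, 538 and 626 CPM in Trem2ko A8 to A12, a narrow range. In WT animals it was 655 CPM at the lowest (A2), 1620 at the median and 1840 at the highest, so WT A2 alone fell within the Trem2ko range. The log2 fold change was -1.17 ± 0.25 (SE), with an adjusted p of 0.32 in edgeR. Rps29, a small subunit protein, was at 686, 1154, 1295, 493 and 542 CPM in Trem2ko A8 to A12 and at 1251, 1628 and 3155 CPM in WT animals, where the groups just overlapped (log2 -1.24 ± 0.30, adjusted p = 0.95). Rps27, also of the small subunit, was at 471, 507, 521, 403 and 472 CPM in Trem2ko A8 to A12 and at 589, 733 and 1284 CPM in WT animals, without overlap (log2 -0.93 ± 0.26, adjusted p = 1.0). Rpl37a, of the large subunit, had a log2 value of -0.96 ± 0.27.

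The size of this shift followed the plate run of the WT animals. The share of all reads in ribosomal protein genes was 2.22%, 2.81%, 3.26%, 2.65% and 2.82% in Trem2ko A8 to A12. It was 5.47%, 5.32% and 5.73% in WT A3, A5 and A7 of run 43517, and 3.63%, 2.76%, 3.58% and 2.74% in WT A1, A2, A4 and A6 of the other runs. The WT animals of run 43517 thus lay far above both the Trem2ko animals and the remaining WT animals, 2 of which, A2 and A6, lay inside the Trem2ko range. They were also the WT mice aged 18 months, while the other WT mice were aged 19 months, and their cells held more genes (medians of 2481 to 2568 per cell, against 1576 to 1963 in the other WT animals). Oligodendrocyte markers summed to 488 to 582 CPM in the WT animals of run 43517, against 253 to 340 CPM in the other WT animals, with 269 to 414 CPM in the Trem2ko animals. Mitochondrial transcripts took 0.113% to 0.184% of reads in the WT animals of run 43517, against 0.0262% to 0.0829% in the other WT animals, with 0.0495% to 0.0806% in the Trem2ko animals. Neuron markers summed to 46.7, 37.8 and 2.39 CPM in WT A3, A5 and A7, against 0 to 10.2 CPM in the other WT animals. The part of these in the ribosomal protein result was not tested.

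With the 3 WT animals of run 43517 left out, a choice made after seeing these shares, 58 of the 81 genes were negative, the median was -0.25 beside 0.19 for all genes, and 3 were lower at an unadjusted p of 0.05 (3.70% beside 1.24% of 8357 genes). In that comparison 4.74% of all genes were higher at an unadjusted p of 0.05, and 0% passed the adjusted threshold in either direction. Rplp1 then had a log2 fold change of -0.87 ± 0.27 (SE), Rps29 one of -0.74 ± 0.30 and Rps27 one of -0.45 ± 0.27. With the WT animals of run 43517 as the only controls, 80 of 81 were negative, the median was -0.99 and 65 were lower at an unadjusted p of 0.05 (80.2% beside 2.36% of 9281 genes, with 4.96% of all genes higher). There Rplp1 (log2 -1.44 ± 0.16, adjusted p = 0.0091) and Rps27 (-1.35 ± 0.16, adjusted p = 0.013) were the 2 genes called lower in edgeR (0.0215%), and 0% were called higher. Age and plate run go together among the WT animals, so their parts in this gap cannot be told apart.

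**Figure D4:**
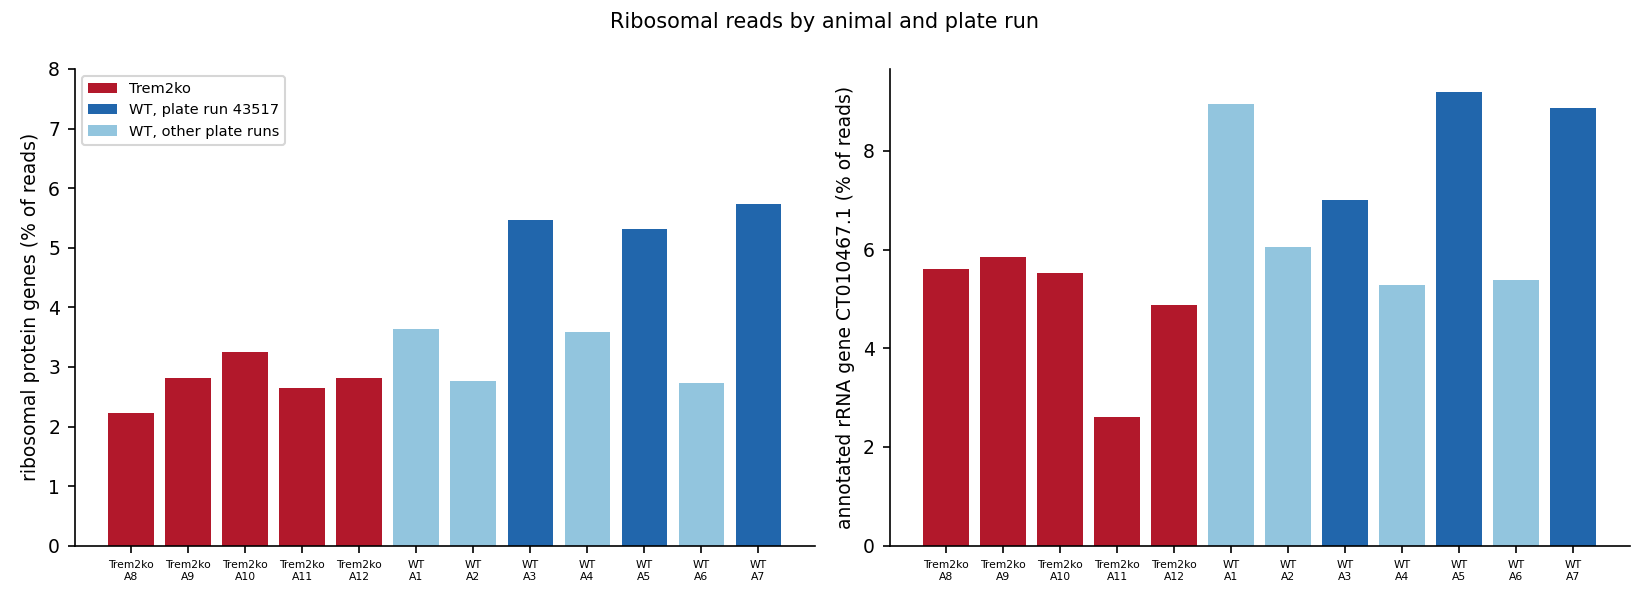
Share of reads in cytosolic ribosomal protein genes (left) and in the annotated rRNA gene CT010467.1 (right) for the 5 Trem2ko animals and the 7 WT animals. In the left panel the WT animals of plate run 43517 stand at 5.32% to 5.73%, while the other WT animals, at 2.74% to 3.63%, adjoin the Trem2ko animals at 2.22% to 3.26%.

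Ribosomal RNA moved with it in part. The annotated rRNA gene CT010467.1 took 5.61%, 5.84%, 5.52%, 2.60% and 4.87% of reads in Trem2ko A8 to A12, against 5.28%, 7.00% and 9.20% (lowest, median and highest) in WT animals, with WT A1 at 8.94% outside run 43517. Its part in the ribosomal protein result was not tested. Translation factors, the other arm of protein synthesis, had 17 of 27 positive and a median of 0.06.

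Nuclear genes of the respiratory chain leaned the same way more weakly. Of 83 tested, 60 were negative, with a median of -0.31, and 1, the succinate dehydrogenase gene Sdha, was lower at an unadjusted p of 0.05 (1.20% beside 1.17%). Sdha was at 121, 138, 171, 160 and 145 CPM in Trem2ko A8 to A12 and ranged from 67.3 to 702 CPM in WT animals, with a log2 fold change of -1.13 ± 0.48 (SE). Uqcrq (log2 -1.54 ± 0.76) and Ndufa6 (-1.14 ± 0.57), subunits of complexes III and I, came next. Leaving out 1 WT animal moved both by more than 1.5 times: Uqcrq had -0.68 without WT A6 and Ndufa6 -0.72 without WT A1. The median stayed at -0.29 without the WT animals of run 43517, but under limma voom, where the median of all genes was 0.55, 42 of 83 were negative.

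Several genes of low level stood higher in the grey matter of every Trem2ko animal. They were among the 42 of 8350 genes (0.503%) whose groups did not overlap in that direction. Being low in WT animals, they passed the low-count filter mainly through the Trem2ko libraries, most of which were deeper. Their lack of overlap is therefore described and not taken as support for a change. Thumpd2, a putative RNA methyltransferase, was at 158, 19.2, 5.09, 22.7 and 52.7 CPM in Trem2ko A8 to A12, while the 7 WT animals together held 2 reads of it in grey matter. A read of Thumpd2 was found in 72 of 265 Trem2ko cells and in 2 of 147 WT cells, and in 9.81% and 0.758% of the cells thinned to 30000 reads, which left 265 Trem2ko and 132 WT cells. Its adjusted p was 0.21 in edgeR and 1.4e-05 in DESeq2. Yju2, a splicing factor, was at 67.8, 153, 76.5, 41.0 and 56.0 CPM in Trem2ko A8 to A12 and at 0, 1.08 and 7.06 CPM in WT animals (log2 4.66 ± 1.04, adjusted p = 0.46 in edgeR and 4.7e-05 in DESeq2). Yju2 reads were in 65 of 265 Trem2ko cells and 13 of 147 WT cells, a gap that narrowed to 8.30% and 6.06% of cells at 30000 reads. Chd6, a chromatin remodeller, was at 33.9 to 86.5 CPM in Trem2ko animals and 0 to 15.5 CPM in WT animals, and Sugp2, a splicing-related protein, at 29.1 to 64.1 CPM in Trem2ko animals and 0 to 7.86 CPM in WT animals. At 30000 reads, Chd6 was found in 18.1% of Trem2ko cells and 9.09% of WT cells, and Sugp2 in 8.30% and 3.03%. In white matter the genotypes overlapped for Chd6 and for Sugp2.

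Poll, Rnf41, Dtnbp1 and Ywhah completed the higher genes of smallest p-value, each with overlapping groups and an adjusted p of 1.0 in edgeR. Ywhah, a 14-3-3 adaptor, was the most abundant, at 853 ± 216 CPM in Trem2ko animals and 512 ± 111 CPM in WT animals (log2 0.74 ± 0.24). Among the lower genes, Pacs2, a sorting protein of the endoplasmic reticulum and mitochondria, was at 5.74, 14.6, 1.11, 6.46 and 12.7 CPM in Trem2ko A8 to A12 and at 0, 71.6 and 487 CPM in WT animals, where WT A6 held none (log2 -4.11 ± 1.11, adjusted p = 1.0 in edgeR). Thop1, a neuropeptide-cleaving protease, was at 0, 0, 0, 1.66 and 9.50 CPM in Trem2ko A8 to A12 and at 0, 86.2 and 1232 CPM in WT animals, with the highest in WT A6. Tln1 (talin, which links integrins to actin) and Snx1 (an endosomal sorting protein), 2 of the 11 genes with Trem2ko below WT and named here after their values were seen, had log2 values of -1.04 and -1.01.

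Of Alzheimer risk genes, 23 of 25 were tested, 15 were positive and the median was 0.24. Trem2, Apoe and Bin1 were the 3 past an unadjusted p of 0.05 in the lower direction (13.0% beside 1.17%). That share counts Trem2, the gene the genotype label names, so it does not measure an excess among the other members. Bin1, which bends membranes in endocytosis, was at 914, 1128, 1162, 1593 and 1668 CPM in Trem2ko A8 to A12 and at 1546, 1608 and 2718 CPM in WT animals, so that A11 and A12 lay within the WT range (log2 -0.48 ± 0.21, adjusted p = 1.0 in edgeR).

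The genotype effect was compared between grey and white matter by fitting the difference of the 2 effects, with the animal as a block. This fit used the 11 animals that had at least 5 cells of each tissue, 5 Trem2ko and 6 WT. No gene of 9925 passed an adjusted p of 0.05 in edgeR (0%), while 247 did at an unadjusted p of 0.05 (2.49%), and DESeq2 called 25. The lowest adjusted p was 1.0. Trem2 averaged 648 ± 415 CPM in Trem2ko and 3189 ± 1231 CPM in WT grey matter, and 750 ± 682 CPM in Trem2ko and 2897 ± 924 CPM in WT white matter (SD). The difference of the log2 effects, grey minus white, was -0.15 ± 0.34 (SE). In white matter Trem2ko A12, at 1929 CPM, lay inside the WT range, which began at 1870 CPM.

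DAM genes had the following levels in the 2 tissues, and grey against white matter itself was not tested. Apoe averaged 476 ± 159 CPM in Trem2ko and 1335 ± 999 CPM in WT grey matter, and 9104 ± 3018 CPM in Trem2ko and 47000 ± 40150 CPM in WT white matter, with a difference of 0.43 ± 0.86. Lyz2 averaged 569 ± 177 CPM in Trem2ko and 532 ± 180 CPM in WT grey matter, and 1141 ± 258 CPM in Trem2ko and 4515 ± 3845 CPM in WT white matter, with a difference of 1.64 ± 0.45 (unadjusted p = 0.0022). Cst7 averaged 23.3 ± 18.4 CPM in Trem2ko and 4.91 ± 5.59 CPM in WT grey matter. In white matter it averaged 26.3 ± 19.8 CPM in Trem2ko and 226 ± 192 CPM in WT animals. The difference for Cst7 was 5.55 ± 2.03. Spp1 averaged 2.40 ± 2.0 CPM in Trem2ko and 2.44 ± 2.2 CPM in WT grey matter, close to the floor. In white matter it averaged 82.0 ± 159 CPM in Trem2ko and 470 ± 696 CPM in WT animals. There Trem2ko A12 held 365 CPM of Spp1 and the other Trem2ko animals 0 to 40.7 CPM. The WT animals ran from 1.04 CPM in A2 to 1836 CPM in A5. The difference for Spp1 was 4.92 ± 1.65. Each of these differences has an adjusted p of 1.0 in edgeR. Thumpd2 averaged 31.0 ± 21.6 CPM in Trem2ko and 16.4 ± 21.7 CPM in WT white matter (SD), where WT A3, A5 and A7 held 49.6, 37.3 and 11.4 CPM. Its difference of effects was 5.79 ± 2.56 (unadjusted p = 0.039). Yju2 averaged 44.7 ± 28.1 CPM in Trem2ko and 59.6 ± 60.9 CPM in WT white matter, and its difference of 5.31 ± 1.36 (unadjusted p = 0.0012) had an adjusted p of 1.0 in edgeR as well.

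**Figure D5:**
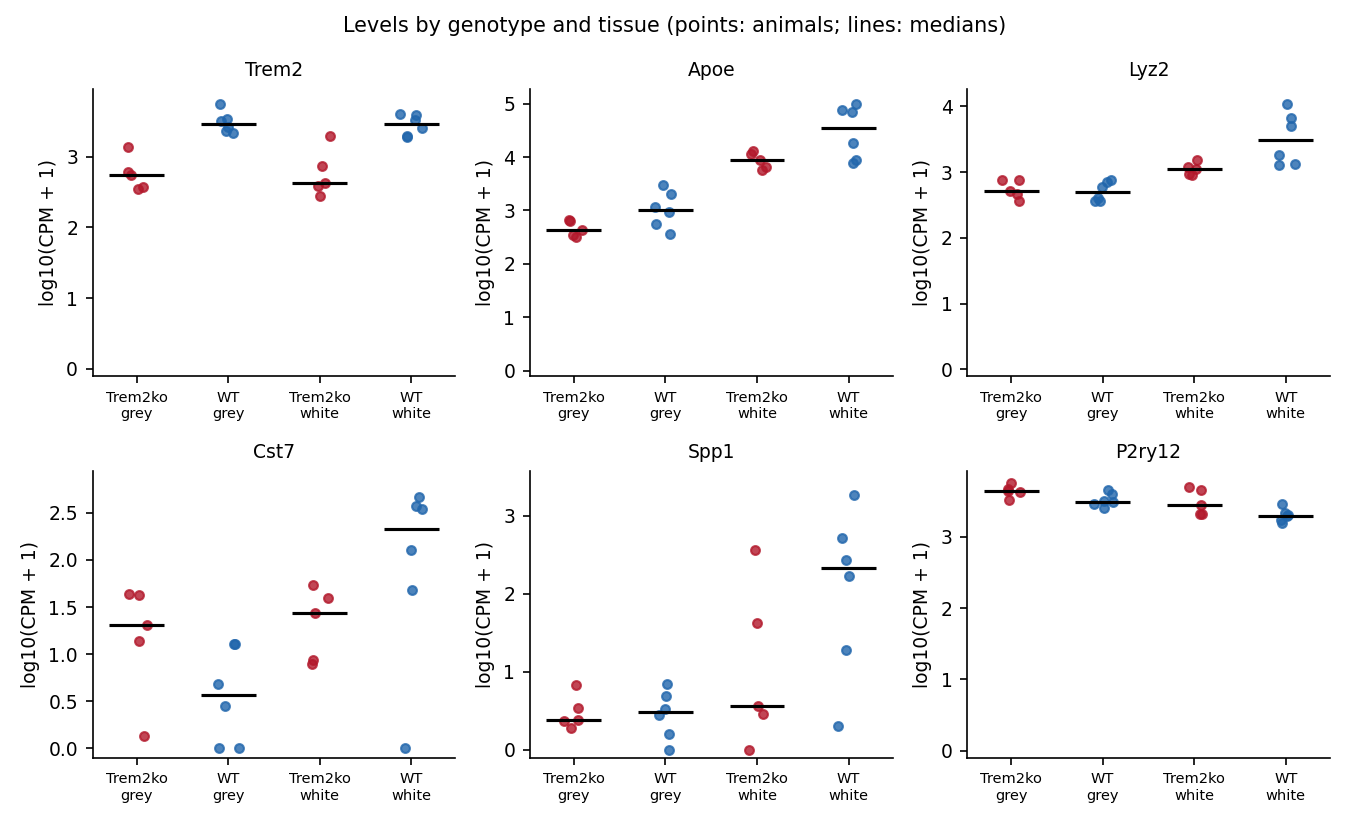
Levels of 6 genes as log10(CPM + 1) in Trem2ko (red) and WT (blue) animals, in grey matter (left pair) and white matter (right pair). Points are the 5 Trem2ko and 6 WT animals with at least 5 cells of both tissues and bars are medians; the medians of Trem2 are lower in Trem2ko animals of both tissues, while Cst7 and Spp1 are low in grey matter of both genotypes.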

How the data were processed

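The deposited table holds raw read counts per gene and cell, per the file headers and values. The submitters' processing notes name bcl2fastq, FastQC, Trim Galore and the build mm10; which aligner and counter served the Smart-seq2 cells is not stated in them. The table joins 2 parts with different gene names. Of 18081 symbols, 55 renamed pairs were joined, 4473 genes with reads in 1 part only (0.141% of reads) and 243 with none were left out, and 13310 were kept. Counts were summed per animal with at least 5 cells. edgeR 4.0.16 in R 4.3.3 fitted its robust quasi-likelihood test after filterByExpr and TMM scaling, with Benjamini-Hochberg adjustment at 0.05. It was also run on simulated counts with less scatter than these libraries, which does not show its power or error at their scatter. DESeq2 1.42.0 and limma 3.58.1 were alternatives. SE is the fold change over the square root of F. Single values were compared by exact permutation tests. The grey matter p-values measure the spread between animals, which also holds plate run and the sampling of cells. Those of the tissue difference measure the spread left within animals, because the animal was a block.

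Named genes are Trem2, Rplp1 and Apoe, the called genes, the 8 of smallest p in each direction with a mean of at least 20 CPM, a fixed panel, and the 3 of smallest p in each list described. The members and lists were chosen with earlier results of these data known. The 3 alternatives on plate run 43517 were added after seeing the data. For the tissue difference the animal number pairs grey and white matter of the same mouse, so the animal was a block. A gene of the fixed panel is not reported here.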

Additional observations from a re-analysis of the deposited data

Results flagged for a closer look

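Among 52 groups of animals checked, 10 held 1 animal whose gap to its nearest neighbour was a large part of the group's range; about 2.6 would be flagged by chance at 1 in 20. Trem2 was flagged in both genotypes: the animal labelled Trem2ko A12 stood apart at 1379 CPM, with the next Trem2ko animal at 621 CPM, and WT A6 at 5844 CPM, with the next WT animal at 3579 CPM.

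WT A6, the library of 7 cells, was also the highest WT animal for Bin1 at 2718 CPM, Thop1 at 1232 CPM and Thumpd2 at 1.96 CPM. WT A1 was the highest WT animal for Serpine2 at 1374 CPM and Pacs2 at 487 CPM, and the lowest for Tyrobp at 1423 CPM. Thop1 was highest of the Trem2ko animals in A12 at 9.50 CPM, and Chd6 was highest of the WT animals in A5 at 15.5 CPM.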

How the results depend on the processing

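The count of 1 gene at an adjusted p of 0.05 became 0 under upper quartile scaling, with A13 included, in animals labelled male, with A11 and A12 as the Trem2ko animals, and without WT of run 43517. It was also 0 in cells of at least 50000 reads, which left 6 WT animals. The same held without cells that carry markers of another type, which left 4 WT animals. It became 11 in DESeq2, 2 in limma voom (Rps29 and Rplp1) and 2 against WT of run 43517 alone; with each animal left out in turn it lay between 0 and 2. The Trem2 difference of log2(CPM + 1) was negative in 31 of 31 settings and past p of 0.05 in 28. It missed that line at -1.60 with A13 included, at -1.74 in animals labelled male (p = 0.071, the smallest that exact permutation test can give) and at -2.09 with A11 and A12 as the Trem2ko animals (p = 0.056, likewise its smallest), and lay between -2.68 and -2.18 with each animal left out. The tissue difference called 0 genes with and without the replicate block and 25 in DESeq2, and 0 to 0 with each animal left out. The WT libraries hold 571560 to 4213467 reads, which limits what low genes can show, and the cause of these changes was not tested.

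Of 2009 values of 58 named genes under alternatives, 1904 kept their direction. The reversed log2 fold changes were these. With A11 and A12 as the Trem2ko animals, Cx3cr1 had -0.30, H2-Ab1 -0.21, Plcg2 0.034 and Tyrobp 0.065. With A8, A9 and A10 as the Trem2ko animals, B2m had 0.18, C1qa 0.083, Ccl3 -0.16 and Lyz2 -0.25. In DESeq2, Ccl3 had -0.037, Cd9 -0.028, Ctsb -0.074, Cx3cr1 -0.0016 and Lyz2 -0.016. Under RLE scaling, Ccl3 had -0.043, Cd9 -0.029, Ctsb -0.074, Cx3cr1 -0.0016 and Lyz2 -0.017. With WT of run 43517 alone, B2m had 0.040, C1qa 0.16 and Lyz2 -0.27. Without WT of run 43517, Cd68 had -0.045, Cd9 -0.013, Csf1r 0.070, Ctsb -0.0058, Fth1 0.016, Plcg2 0.66 and Tyrobp 0.083. In animals labelled male, Cd74 had -1.02 and Ifit3 -0.032. With A13 included, B2m had 0.55, Bin1 0.39, C1qa 0.40, Ccl3 -0.17, Csf1r 0.99, Fth1 0.061, Lyz2 -0.095, Psap 1.21 and Tyrobp 0.32. The values with A13 also depend on the TMM scaling of its 2-cell library. In cells of at least 50000 reads, with 6 WT animals left, B2m had 0.0070 and Tyrobp 0.0096. In cells thinned to 30000 reads, B2m had 0.034, C1qa 0.0028 and Tyrobp 0.039. With labelled sex as a covariate, Cd74 had -0.11, Cx3cr1 -0.0036, Plcg2 0.51 and Tyrobp 0.098. In limma voom, Cx3cr1 had -0.37, H2-Ab1 -0.29, Plcg2 0.25, Selplg -0.084, Tmem119 -0.15 and Tyrobp 0.013. On means of log2(CPM + 10) over cells, Ccl3 had -0.057, Cd74 -0.011, Cd9 -0.023, Ctsb -0.032, Lyz2 -0.040 and Tpp1 -0.12. With no low-count filter, C1qa had 0.0090 and Tyrobp 0.098. With no scaling factor, Tyrobp had 0.046. Under upper quartile scaling, Ccl3 had -0.027, Cd9 -0.027, Ctsb -0.064, Cx3cr1 -0.0041 and Lyz2 -0.015. Without A12 and WT of run 43517, Cd9 had -0.11, Csf1r 0.11, Ctsb -0.0012, Fth1 0.071, Plcg2 0.57 and Tyrobp 0.064. Without cells that carry markers of another type, with 4 WT animals left, B2m had 0.32, C1qa 0.30, Ccl3 -0.080, Cx3cr1 -0.032, Npc1 -0.024, Plcg2 1.71 and Tyrobp 0.12. With each animal left out in turn, the ranges that crossed 0 were Tyrobp -0.076 to 0.050, Plcg2 -0.43 to 0.042, Cx3cr1 -0.0033 to 0.20, Cd9 -0.012 to 0.29, Ctsb -0.029 to 0.19, Lyz2 -0.043 to 0.21, B2m -0.21 to 0.044, Cd74 -0.19 to 1.52, C1qa -0.15 to 0.013, Ccl3 -0.088 to 0.42.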
